A study of Mus musculus with 20 samples.

Results

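Cxcr4 knockout (KO) and control monocytes were sorted from mouse brains 3 days after a permanent photothrombotic stroke, and 3 libraries of each genotype were compared across all genes. In this model a dye in the blood is excited by light through the skull and occludes vessels of the cortex under it. These 6 libraries, of 20 in the series, were chosen by their labels: TdT-positive monocytes of the Cxcr4CreER line, from conditional KO mice and from mice of the same line labelled as control or wt. By the numbers in the titles, the 6 monocyte libraries came from 6 different mice, and no mouse gave libraries of both genotypes. The TdT-negative microglia of the same line, with 3 libraries of each genotype, entered the model only to share its estimate of the spread and as a comparison; KO mice 1 and 3 of the monocyte groups and control mice 1 and 3 also gave a microglia library. Both genotypes carry the CreER transgene driven by Cxcr4 and the TdT reporter, so a TdT-positive cell is one in which, or in whose ancestors, Cxcr4 was active when Cre was induced. The labels used here give no age, sex, strain, tamoxifen schedule or further sort marker, and they do not say which part of Cxcr4 is deleted.

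Cxcr4 is a G-protein-coupled receptor for the chemokine Cxcl12. In the bone marrow, Cxcl12 made by stromal cells holds stem cells, progenitors and immature neutrophils and monocytes in place, and loss of the receptor or its blockade releases them into blood. After a stroke, Ly6C-high monocytes enter the lesion by way of the receptor Ccr2 and become macrophages. RNA levels in such monocytes may therefore bear on identity and maturity, on the other chemoattractant receptors, and on inflammatory and repair programmes, which set the order below. In bulk samples fewer cells of a type and less RNA per cell cannot be told apart.

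The monocyte libraries held 10406321 to 56803993 reads and 10350 to 12473 detected genes. Control monocytes 2 was the shallowest (10350 genes) and KO monocytes 2 the deepest (11864 genes). Across genes, log2 values correlated at 0.739 to 0.779 between KO libraries, at 0.679 to 0.767 between control libraries and at 0.676 to 0.782 between a KO and a control library, so the ranges within and between genotypes overlapped. Every pair with control monocytes 2 was at 0.676 to 0.685, and every other pair at 0.736 to 0.782. Values are normalized counts, in which 1 read is worth 0.375 to 2.19.

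The animals of the groups differed in sex-linked transcripts. Xist, the RNA that silences the inactive X chromosome, was at 2830 and 3348 in KO monocytes 1 and 2 but at 118 in KO monocytes 3 and at 104, 179.9 and 263 in the controls. Ddx3y, from the Y chromosome, was at 6.07 and 6 in KO monocytes 1 and 2, at 2227 in KO monocytes 3, and at 1298, 2662 and 1901 in the controls. KO monocytes 2 also carried 453 of the Y-linked Eif2s3y, against 2.60 in KO monocytes 1. High Xist was thus found in 2 KO and no control monocyte library, and sex and genotype are partly confounded. Results are therefore also given without KO monocytes 1 and 2, and with high Xist (1000 or more) as a term of the fit over all 12 libraries.

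**Figure D1:**
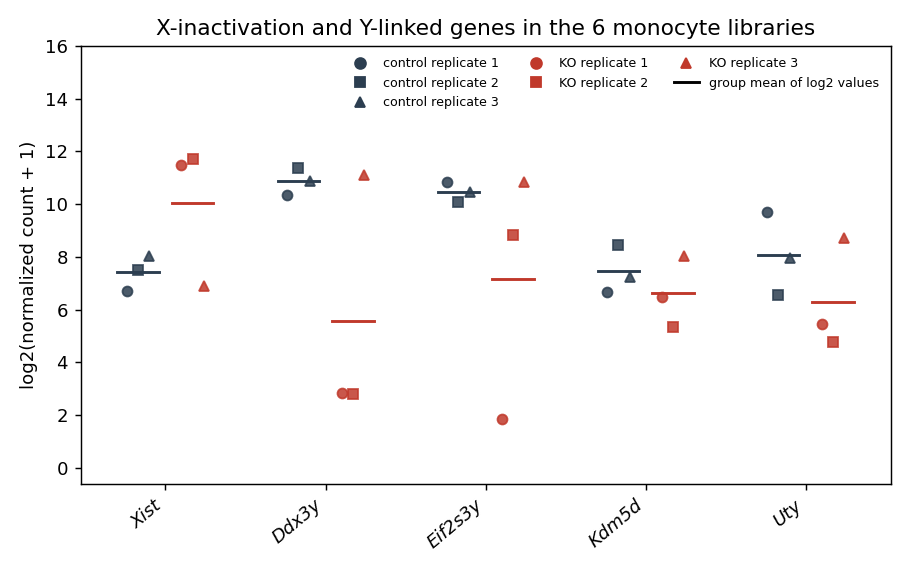
Xist and 4 Y-linked genes in the 6 monocyte libraries, as log2(normalized count + 1); points are libraries, shapes give the replicate number and lines the mean of 3 log2 values. KO replicates 1 and 2 lie above the other 4 libraries in Xist (2830 and 3348 normalized counts) and below them in Ddx3y (6.07 and 6).

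The receptor itself was lower in every KO library, but its transcript was far from absent. Cxcr4 was at 784, 1010 and 536 normalized counts in KO monocytes 1 to 3 and at 1183, 1332 and 1166 in control monocytes 1 to 3. The groups did not overlap, and the KO mean of 777 ± 237 (SD, n = 3) was 63.3% of the control mean of 1227 ± 91.4 (SD, n = 3). The exact two-sided permutation test gave p = 0.1, the smallest that 3 against 3 libraries allow. Across all genes, limma did not call the difference: log2 fold -0.70, SE 1.10, 95% interval -3.11 to 1.71, adjusted p 0.962. In the fit of the 6 monocyte libraries alone the SE was 0.32 and the interval -1.48 to 0.08, with an adjusted p of 0.921. Without KO monocytes 1 and 2 the log2 fold was -1.19, and it was -1.67 with high Xist as a term, neither called. The labels do not give the deleted part, and reads outside it would still count toward the gene, so its level checks the genotype labels only in part.

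Both monocyte markers were high in all 6 libraries. Ccr2, the receptor for the chemokine Ccl2, was at 12020, 10340 and 16510 in KO and at 13090, 14890 and 14060 in control monocytes (log2 fold -0.14, 95% interval -1.20 to 0.92; limma adjusted p 1). Ly6c2, the antigen of classical monocytes, was at 31310, 11000 and 20210 against 19510, 5227 and 17250 (log2 0.66, 95% interval -3.04 to 4.36; limma adjusted p 1). In the fit of the 6 monocyte libraries alone the 95% interval was -0.67 to 0.39 for Ccr2 and -0.92 to 2.24 for Ly6c2. The groups overlapped in both genes. Ly6c2 shares 23.8% of the 31-base words of its transcripts with other genes, most with Ly6c1, so its level is uncertain to that extent. The low Ly6c2 values came from KO monocytes 2 and control monocytes 2, the deepest and the shallowest library. The microglial gene P2ry12 was also present in every monocyte library, at 1025 to 1631, with the groups overlapping. Cxcl12 was not analysed here. Ackr3, the second receptor of Cxcl12, was at 98.9 in KO monocytes 1, at 0 in the other KO libraries and at 0, 6.58 and 5.12 in control monocytes, which gives no direction.

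Of 12432 genes, limma called 5 at an adjusted p under 0.05 (0.0402%), all of them higher in KO monocytes: Upp1, Tnfrsf18, Clec4a4, Elane and Sh2d1b1. Each was at 0 in all 3 control libraries, so each fold is given as at least so much, with the controls set to 3 reads for the whole group (1.20 normalized counts); this floor covers counting error only. Upp1, uridine phosphorylase, which splits uridine to uracil and ribose phosphate, was at 452, 264 and 327 in KO monocytes (at least 290-fold higher; log2 fold 8.41, SE 0.90, limma adjusted p 0.0101). Tnfrsf18, the co-stimulatory receptor GITR of T cells and some myeloid cells, was at 286, 128 and 82.2 (at least 138-fold higher; limma adjusted p 0.0207). Clec4a4, the inhibitory C-type lectin DCIR2 known from a dendritic cell subset, was at 86.8, 106 and 80.8 (at least 76.16-fold higher; limma adjusted p 0.0207). Elane, neutrophil elastase, a protease packed into primary granules by granulocyte and monocyte progenitors, was at 2161, 306 and 119 (at least 719.7-fold higher; log2 fold 8.75, SE 1.14, limma adjusted p 0.0207). Sh2d1b1, the adaptor EAT-2 that binds SLAM-family receptors in natural killer and myeloid cells, was at 517, 398 and 647 (at least 434.6-fold higher; log2 fold 8.999, SE 1.28, limma adjusted p 0.0377).

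Upp1, Tnfrsf18, Clec4a4 and Elane passed the filter on low values (10 or more in 3 of 12 libraries) only through the KO monocyte libraries in which they were high. In each of the 5 genes all KO libraries stood above all control libraries, which the choice of genes by their call favours. The part of sex in these calls could not be told apart from that of genotype. Upp1, Tnfrsf18, Clec4a4 and Elane were also at 0 in all 6 microglia libraries, which added no spread to the shared estimate. Their calls rest on that fit over 12 libraries: in the fit of the 6 monocyte libraries alone limma called 0 genes, with adjusted p from 0.364 to 0.681 for the 5, while 280 genes were higher and 221 lower at an unadjusted p under 0.05. EdgeR on the recovered reads also called 0 genes, with 430 higher and 401 lower at an unadjusted p under 0.05, and so did limma without KO monocytes 1 and 2 (305 and 233) and limma with high Xist as a term (311 and 245). Without KO monocytes 1 and 2 the KO group is 1 library, which is assumed to vary like the other groups; there the log2 folds of the 5 genes were 6.35 to 9.34, with limma adjusted p from 0.0815 for Upp1 to 0.308 for Sh2d1b1. With high Xist as a term they were 6.46 to 8.39, with limma adjusted p from 0.119 to 0.468. DESeq2 on the same reads called 339 genes (2.73%), 184 higher (1.48%) and 155 lower (1.25%), among them Upp1 and Sh2d1b1. Leaving out control monocytes 1 or 3 raised limma's count to 30 or 26, and leaving out control monocytes 2 lowered it to 2.

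**Figure D2:**
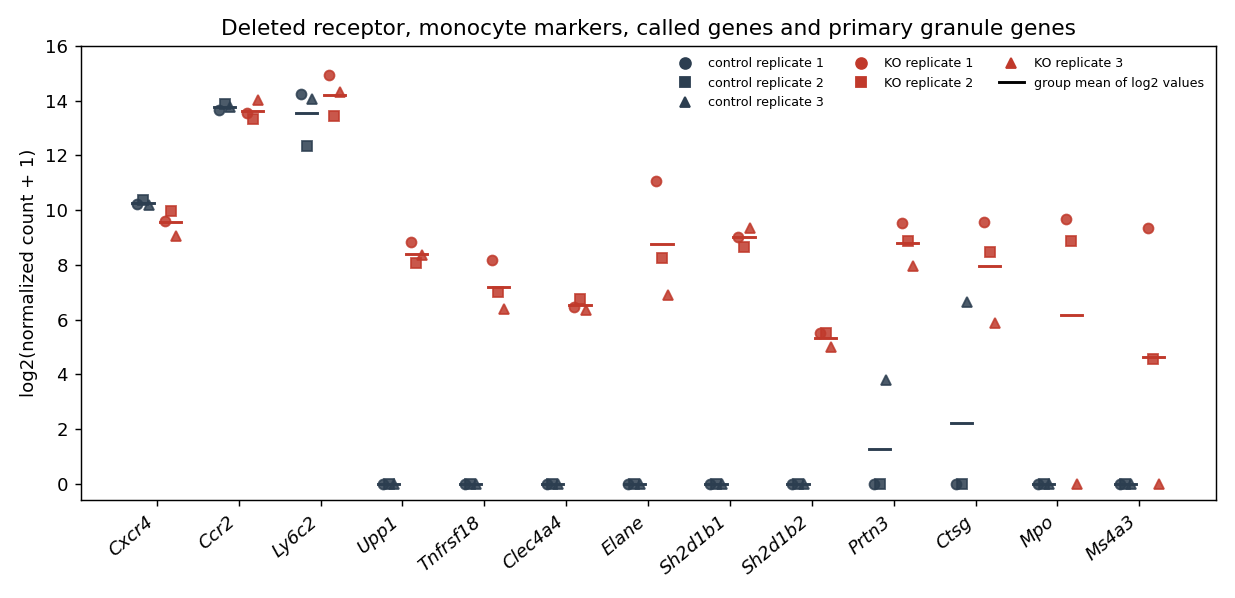
Cxcr4, 2 monocyte markers, the 5 called genes and 5 related genes in the 6 monocyte libraries, as log2(normalized count + 1); points are libraries, shapes give the replicate number and lines the mean of 3 log2 values. Upp1 to Sh2d1b2 are at 0 in every control library and above 0 in every KO library, while Mpo and Ms4a3 are at 0 in KO replicate 3.

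Elane and its neighbour Prtn3 formed a pair. In the gene order of RefSeq (GRCm38.p6), Prtn3, proteinase 3, lies next to Elane, and both proteases belong to the same cluster of primary granule genes. Prtn3 was at 732, 468 and 248 in KO monocytes and at 0, 0 and 12.8 in control monocytes. The groups did not overlap, and limma did not call it (log2 fold 7.52, SE 1.25, adjusted p 0.132), while DESeq2 did (adjusted p 0.00975). Prtn3 passed the filter on low values only with the KO monocyte libraries in which it was high. In both genes KO monocytes 1 was the highest and KO monocytes 3 the lowest library.

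Further genes of the same granule programme were examined after their values had been seen. Ctsg, the granule protease cathepsin G, was at 752, 349.5 and 58.1 in KO and at 0, 0 and 98.5 in control monocytes, so that the groups overlapped (log2 5.75, SE 1.71, limma adjusted p 0.539). Ctsg, too, passed the filter on low values only with the KO monocyte libraries. Mpo, myeloperoxidase, was at 819, 462 and 0 in KO and at 0 in all 3 control libraries. Ms4a3, a marker of granulocyte and monocyte progenitors, was at 643, 22.5 and 0 in KO and at 0 in all 3 control libraries. Mpo and Ms4a3 fell under the filter on low values and were not tested. The order of the KO libraries was the same in all 5 genes, with KO monocytes 1 highest and KO monocytes 3 lowest.

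The promoters of 4 of these granule genes, from RefSeq's GRCm38.p6 table, are shown because the genes were high in the same KO libraries; each runs from 250 bases before the annotated start to 50 bases after it, 5′ to 3′ on the gene's strand. Capitals mark matches on either strand to GAGGAA, the core bound by the myeloid factor PU.1, and to TGTGGT, a RUNX core (ACCACA on the other strand). Elane lies at chr10:79886062-79886361 (+ strand), Prtn3 at chr10:79879417-79879716 (+), Mpo at chr11:87793534-87793833 (+) and Ctsg at chr14:56102525-56102824 (- strand).
Elane: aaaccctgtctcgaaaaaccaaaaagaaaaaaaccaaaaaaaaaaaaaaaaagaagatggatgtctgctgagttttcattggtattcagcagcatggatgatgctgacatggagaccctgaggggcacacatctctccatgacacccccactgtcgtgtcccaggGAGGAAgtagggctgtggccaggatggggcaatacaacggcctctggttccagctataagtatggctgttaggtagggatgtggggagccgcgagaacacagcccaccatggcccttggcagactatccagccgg
Prtn3: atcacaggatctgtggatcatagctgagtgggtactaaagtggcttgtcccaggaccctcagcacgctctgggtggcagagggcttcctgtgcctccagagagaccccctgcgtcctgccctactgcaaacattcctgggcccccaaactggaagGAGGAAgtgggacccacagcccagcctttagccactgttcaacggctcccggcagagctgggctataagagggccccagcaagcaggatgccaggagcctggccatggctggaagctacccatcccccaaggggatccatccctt
Mpo: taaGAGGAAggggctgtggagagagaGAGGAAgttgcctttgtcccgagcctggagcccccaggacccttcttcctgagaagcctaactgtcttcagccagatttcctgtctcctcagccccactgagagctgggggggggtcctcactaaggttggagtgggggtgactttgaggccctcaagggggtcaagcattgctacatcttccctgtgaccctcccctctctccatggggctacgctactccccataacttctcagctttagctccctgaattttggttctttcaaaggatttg
Ctsg: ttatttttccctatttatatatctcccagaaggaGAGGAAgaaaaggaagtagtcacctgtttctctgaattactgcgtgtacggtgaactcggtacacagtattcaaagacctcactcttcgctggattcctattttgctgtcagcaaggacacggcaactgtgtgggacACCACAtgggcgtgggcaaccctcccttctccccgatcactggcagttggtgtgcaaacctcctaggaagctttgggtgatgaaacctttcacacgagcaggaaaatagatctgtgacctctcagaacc
GAGGAA was found at 1 place each in the Elane, Prtn3 and Ctsg windows and at 2 places in that of Mpo, and also in the window of Ms4a3, on the gene's own strand in all 5. It starts 85 bases before the annotated start of Elane and 95 before that of Prtn3. Of the 32851 promoters of the table, 28.3% hold GAGGAA on either strand, 16.8% hold TGTGGT and 10.8% hold TTGCNNAA, a C/EBP motif that among these 5 was found in Ms4a3 only. No 2 matches overlapped in these windows, and matches are descriptions of the letters, not of binding.

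The whole list gave no common direction. Of 29 members of the list of primary granule and progenitor genes 20 were tested, with 11 positive and 9 negative folds (52.4% and 46.3% of all genes tested), a median log2 fold of 0.14 (0.05 over all genes tested), and 1 call (Elane). Groups did not overlap for 3 members, all higher in KO: Elane, Prtn3 and Igfbp4 (107, 74.6 and 71.5 against 58.4, 21.9 and 62.7; limma adjusted p 0.908). Across all genes, groups did not overlap for 8.82%, with KO higher for 4.67% and lower for 4.15%. The progenitor receptors Kit (49.5, 54.4 and 28.1 against 3.16, 0 and 57.5) and Cd34 (81.6, 10.1 and 32.7 against 49.7, 63.6 and 47.3) overlapped between groups. Camp, Ngp and Ltf, which fill the later granules of neutrophils, overlapped between groups. Camp was at 1473, 0 and 159 in KO and at 11.05, 2015 and 110 in control monocytes, so control monocytes 2 was highest. Ngp was at 2564, 26.25 and 0.668 against 0, 109.7 and 234, and Ltf at 522, 0 and 0 against 100.3, 10.97 and 71.6.

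Neutrophil markers were present in both groups. The 21 tested neutrophil genes summed to 82070, 55150 and 45400 in KO and to 23320, 46920 and 37540 in control libraries, so the summed levels overlapped, and the highest belonged to KO monocytes 1, which also had the most Elane. Their median log2 fold was 0.54, with 13 positive and 8 negative, and it was 0.09 without KO monocytes 1 and 0.96 without KO monocytes 2. S100a8 and S100a9, the abundant calcium-binding proteins of neutrophils, were at 28290 to 47080 and 7254 to 14320 in KO and at 10980 to 29640 and 3979 to 7575 in control monocytes. Ly6g, the defining neutrophil antigen, was at 258, 123 and 3.34 in KO and at 8.69, 0 and 10.2 in control monocytes. Lcn2, which binds bacterial siderophores, was at 708, 429 and 188 against 74.2, 0 and 80.6, and Trem3 at 268, 363 and 554 against 204, 0 and 33.2, both without overlap. The G-CSF receptor Csf3r went the other way, at 807, 202 and 244 against 1468, 1075 and 1271 (log2 -1.88, SE 0.59, limma adjusted p 0.59), as did histidine decarboxylase, Hdc (256, 365 and 293 against 598, 582 and 435). The part of neutrophil RNA in the Elane result was not tested.

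Sh2d1b1 also had a partner next to it. Sh2d1b2, its tandem paralog ERT, was at 44.2, 44.6 and 30.7 in KO monocytes and at 0 in all 3 control libraries, at least 33.3-fold higher (limma adjusted p 0.229, not called). Sh2d1b2 passed the filter on low values only through the KO monocyte libraries in which it was high, with microglia at 9.12 or less. The values of this gene were looked at after those of Sh2d1b1. The copies share 18.3% of the 31-base words of the Sh2d1b1 transcripts in GENCODE M21, so reads could be split between them in part, and their separate levels are uncertain to that extent. Of the 5 called genes, Sh2d1b1 alone was detected in microglia: at 73.0, 69.3 and 115 in KO and at 0, 17.7 and 0 in control microglia (log2 4.99). It thus stood higher in all KO libraries than in all control libraries of both populations. Cxcr4 lies on chromosome 1, with its promoter window at chr1:128592250-128592549 (- strand). Sh2d1b1 and Sh2d1b2 lie on the same chromosome, away from that window, and any part of linkage to Cxcr4 was not tested. Their promoter windows, shown because the 2 genes moved together and share sequence, lie at chr1:170277068-170277367 (+ strand) for Sh2d1b1 and chr1:170232621-170232920 (+) for Sh2d1b2, with the same capitals as above.
Sh2d1b1: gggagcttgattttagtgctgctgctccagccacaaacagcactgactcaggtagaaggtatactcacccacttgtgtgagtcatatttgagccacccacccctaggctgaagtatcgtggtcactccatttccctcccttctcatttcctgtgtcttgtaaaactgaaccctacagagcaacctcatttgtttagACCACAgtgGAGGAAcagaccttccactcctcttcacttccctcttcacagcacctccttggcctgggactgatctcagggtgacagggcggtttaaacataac
Sh2d1b2: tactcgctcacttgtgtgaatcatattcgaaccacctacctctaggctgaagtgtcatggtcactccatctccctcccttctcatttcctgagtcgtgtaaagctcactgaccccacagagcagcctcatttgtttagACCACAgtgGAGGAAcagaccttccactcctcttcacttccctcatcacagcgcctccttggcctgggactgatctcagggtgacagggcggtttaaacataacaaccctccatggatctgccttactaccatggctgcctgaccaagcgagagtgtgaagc
In the best local alignment the windows match at 222 of 243 columns (91.4%), with a longest identical run of 58 bases; aligned over their whole length they match at 222 of 362 columns (61.3%), of which 124 hold a gap. Both hold the pair of ACCACA and GAGGAA, with 3 bases between them, ending closer to the annotated start in Sh2d1b1.

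The other called genes had fewer ties to their neighbours. Upp1 and Elane shared no 31-base word with any other gene's transcripts. Clec4a4 belongs to a cluster of C-type lectins and shared 21% of its 31-base words with others, most of them with Clec4a2. Clec4a2 was at 2687, 2401 and 1678 in KO and at 849.6, 2862 and 1175 in control monocytes, Clec4a1 at 2980, 3959 and 3092 against 1312, 4301 and 1254, and the neighbours Clec4a3 (4867 to 6571 against 5505 to 6081) and Clec4b1 (236 to 430 against 103 to 687) overlapped as well. Tnfrsf18 shared 21.9% of its words with the predicted gene Gm16008. Tnfrsf4, the T cell receptor OX40 that lies next to Tnfrsf18, was at 49.5 in KO monocytes 1 and at 0 in the other 5 monocyte libraries.

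T and NK cell markers were low and uneven. Of the 5 tested members, 4 had positive folds and Klrk1 a negative one, all with overlap. The median log2 fold was 1.72, and 0.52 to 2.65 on leaving out 1 library. It was -1.76 without KO monocytes 1 and 2. The 5 summed to 1074, 984 and 279.8 in KO and to 776, 1071 and 1742 in control libraries. Klrk1 (869, 242 and 189.7 against 749, 1009 and 1423) was the largest member in every library but KO monocytes 2, so the sum mainly follows Klrk1. Cd3d was at 54.7, 631 and 90.2 against 15.8, 59.2 and 25.6, and Nkg7 at 25.2, 321 and 0 against 0 in all controls. Klrb1c was at 202 and the basophil protease Mcpt8 at 316 in KO monocytes 2, and each was at 0 in the other 5 libraries. The part of such cells in the Tnfrsf18 and Sh2d1b1 results was not tested.

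Presence in one group and absence in the other was more frequent in KO. Of the 12432 genes, 41 (0.33%) were at 0 in every control and above 0 in every KO library, and 14 (0.113%) the reverse. The KO libraries were deeper than 2 of the 3 controls, and with all libraries thinned to 10406321 reads the counts were 40 (0.322%) and 23 (0.185%). Single libraries at 0 were common: 2005 tested genes were at 0 in 1 or 2 of the 6 monocyte libraries and at 100 or more in another, with a median SE of 2.09 for the log2 fold. The median SE was 1.25 over all genes and 0.41 for the 2234 genes with a mean of 1000 or more in both groups.

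**Figure D3:**
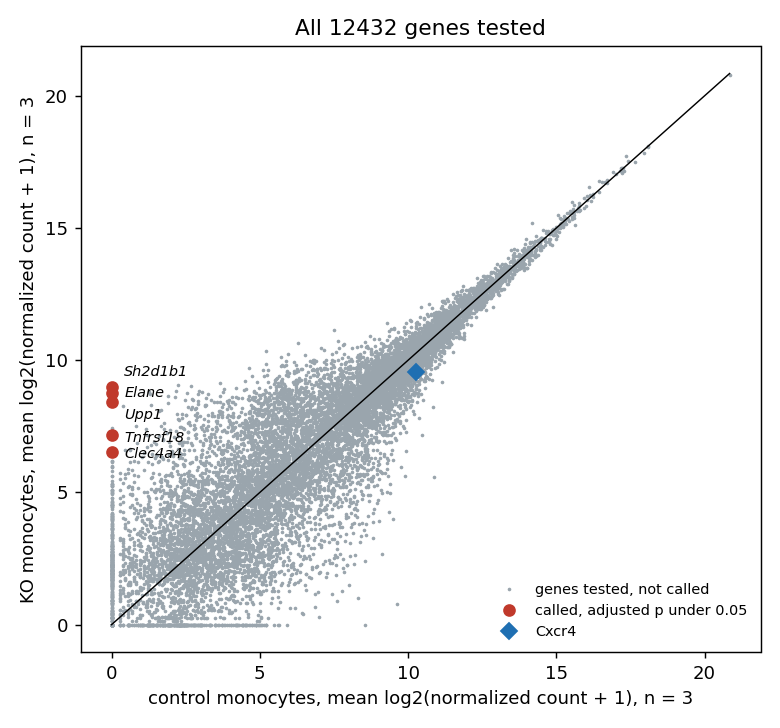
Mean log2(normalized count + 1) of 3 KO libraries (y axis) against 3 control libraries (x axis) for all 12432 genes tested; the line marks equal levels. The 5 called genes lie on the y axis, at 0 in every control library, Cxcr4 lies a little under the line, and the cloud narrows toward high levels.

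Among the genes next in order of unadjusted p, the groups did not overlap but limma called none. Higher values in KO were found for Mdm4, an inhibitor of p53 (758, 886 and 735 against 22.9, 87.8 and 17.9; log2 4.53, SE 0.79, limma adjusted p 0.158), Slc43a3, a purine base transporter (291, 141 and 727 against 0, 0 and 1.28), and Fam13b (334, 363 and 298 against 1.58, 0 and 19.2). Rdh10, which makes retinal for retinoic acid synthesis, was at 234, 58.5 and 215 against 0 in all 3 controls. Atp9b, a phospholipid flippase, was at 54.7, 576 and 182 against 5.53, 0 and 3.84, and Nuf2, a kinetochore protein, at 118, 22.1 and 323 against 0, 0 and 2.56. DESeq2 called all 6, with adjusted p from 4.65e-07 for Slc43a3 to 3.16e-05 for Fam13b, while limma-voom, edgeR and limma did not.

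The 12 leading genes on the lower side were chosen in the same way. Of these limma, limma-voom and edgeR called 0. DESeq2 called 9, all but Skint3, Exoc3 and Gclc, with adjusted p from 2.42e-05 for Lime1 to 0.00311 for Msrb2. Pcyox1, which breaks down prenylcysteine, was at 1.74, 0 and 21.4 in KO and at 82.1, 327 and 444 in control monocytes (log2 -5.87, SE 1.17, limma adjusted p 0.229). Zfyve19 was at 0, 0 and 13.4 against 334, 50.5 and 597, and the membrane adaptor Lime1 at 0, 1.5 and 0 against 184, 138 and 24.3. Clybl, a mitochondrial lyase, was at 71.2, 0.375 and 38.7 against 829, 1273 and 344, and Msrb2, which repairs oxidized methionine, at 0, 1.5 and 22.04 against 280.3, 154 and 84.4. Gart, a trifunctional enzyme of purine synthesis, was at 96.3, 54.8 and 88.2 against 238, 680.3 and 489.7, and Gclc, which starts glutathione synthesis, at 1.74, 0 and 78.8 against 268, 349 and 188. Zfp606, Skint3, Lrrc41 and Exoc3 had log2 folds from -6.71 to -3.36 and limma adjusted p from 0.299 to 0.343. Skint3 passed the filter on low values only with the control monocyte libraries in which it was high.

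The 45 gene lists were read by their counts. They held 717 distinct tested genes, of which limma called 1 (Elane), edgeR 0 and DESeq2 15 (2.09%, against 2.73% of all genes). Unadjusted p was under 0.05 for 30 higher and 13 lower members (6% in all); of all genes 3.47% were so on the higher and 2.61% on the lower side (6.08% in all), and groups did not overlap for 51 (7.11%, against 8.82%). Their median log2 fold was 0.03, against 0.05 for all genes. List medians moved with single libraries: of the 23 lists with 20 or more tested members, 15 had a median that changed sign on leaving out 1 monocyte library. Medians below are from all 6 libraries.

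**Figure D4:**
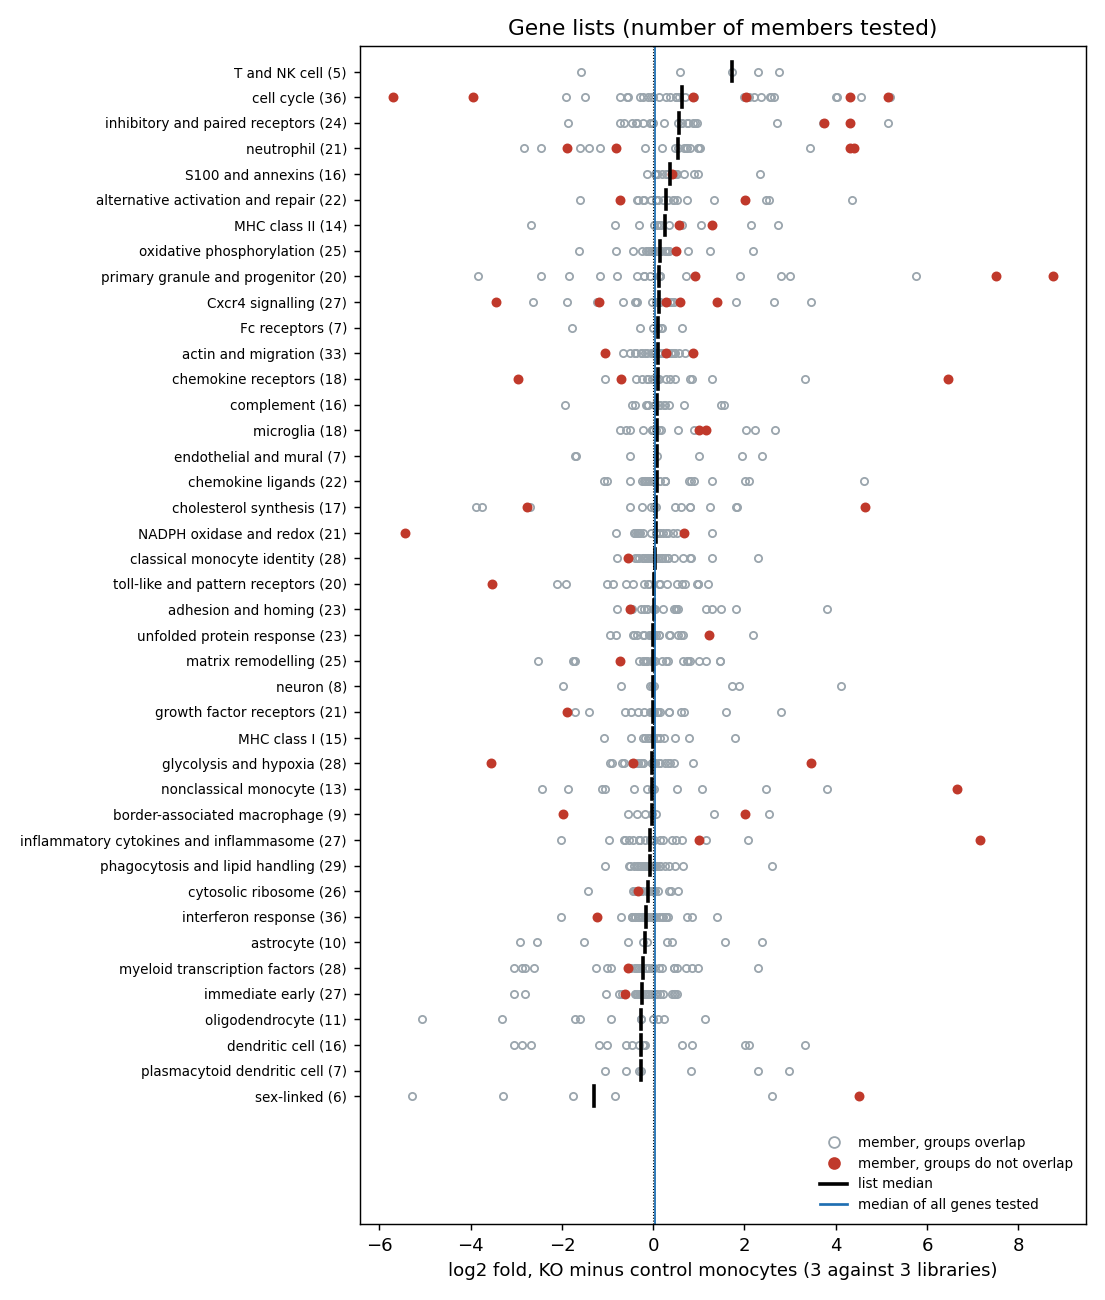
Log2 fold of KO minus control monocytes for the tested members of each list with 5 or more of them; open points are members whose groups overlap, filled points those whose groups do not, bars are list medians and the vertical blue line the median of all genes (0.05). The medians of the lists with 20 or more tested members lie between -0.24 (immediate early genes) and 0.63 (cell cycle), while single members spread far wider.

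Among chemoattractant receptors, 10 of 18 tested members had positive folds (median 0.10). There was no overlap for 3 (16.7%, against 8.82% of all genes), none called by limma: Fpr1, S1pr1 and Cxcr4. Fpr1, the receptor for formylated bacterial and mitochondrial peptides, was at 344, 469 and 354 in KO and at 85.3, 0 and 0 in control monocytes (log2 6.45, SE 1.56, limma adjusted p 0.343). Fpr1 passed the filter on low values only with the KO monocyte libraries in which it was high. Its relative Fpr2 was at 797, 451 and 165 against 202, 160.2 and 123, with overlap. S1pr1, which guides cells out of tissues toward sphingosine 1-phosphate, was at 25.2, 21.8 and 147 against 296, 269.9 and 508 (log2 -2.95, SE 0.85, limma adjusted p 0.488). Ccr1 and C5ar1, receptors of inflammatory chemokines and of complement C5a, were at 2180 to 13750 in all 6 libraries and overlapped. Cx3cr1, the fractalkine receptor, was at 1490, 3947 and 1705 against 2780, 1130 and 3344.

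None of the 22 tested chemokine ligands had groups without overlap, and their median log2 fold was 0.08. Ccl8 was at 1160, 426 and 626 against 228, 419 and 506. Ccl17, a ligand of Ccr4, was at 87.6 and 170 in KO monocytes 1 and 2 and at 0 in KO monocytes 3 and all controls. Ccl17 passed the filter on low values only with the KO monocyte libraries in which it was high.

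Of 27 tested genes of the signalling path below Cxcr4, 17 had positive folds (median 0.13, and -0.14 without control monocytes 2). There was no overlap for 5 (18.5%, against 8.82% of all genes), and limma called none. Gnai3, an inhibitory G-protein subunit to which the receptor couples, was at 2719, 2338 and 2292 against 1664, 359.9 and 1344, and the small GTPase Cdc42 at 12540, 14690 and 13920 against 9931, 11790 and 12360, both higher. Gng2 was at 1800, 1386 and 1734 against 1149, 884 and 1233, also higher. The kinase Mapk3 (Erk1) was at 143, 14.6 and 21.4 against 251, 369 and 709.7, and Cd164, a sialomucin that associates with Cxcr4 and modulates its response to Cxcl12, at 1065, 952 and 2087 against 2707, 3606 and 2591, both lower. The log2 fold of Cd164 was -1.19 with an SE of 0.34 (limma adjusted p 0.488).

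Genes of classical monocyte identity were split evenly. Of 28 tested, 15 had positive and 13 negative folds (median 0.04), and Cebpb, a transcription factor of monocyte survival, was the 1 member without overlap (859.9, 1113 and 1139 against 1234, 1988 and 1384; log2 -0.55, SE 0.41, limma adjusted p 0.896). The abundant members were level: Lyz2, lysozyme, was at 161600 to 212100 in KO and at 173800 to 178200 in control monocytes, and the integrin Itgam at 3604 to 4095 against 3496 to 4029. Their sums were 556600 to 670600 in KO and 529600 to 597100 in control monocytes. The nonclassical list had 13 tested genes and a median of -0.02. Its member Ear2, an eosinophil-type ribonuclease, was at 735, 687 and 194 against 0, 0 and 93.3 (log2 6.67, SE 1.62, limma adjusted p 0.343), and 60.5% of its 31-base words occur in other genes, so its level is uncertain. Ear2 passed the filter on low values only with the KO monocyte libraries in which it was high.

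Dendritic cell genes had 5 positive and 11 negative folds of 16 tested (median -0.27, and 0.05 without KO monocytes 2), all with overlap. Xcr1, a receptor of cross-presenting dendritic cells, was at 72.0, 192 and 37.4 against 42.6, 0 and 11.5. Irf4 was detected at 376 in control monocytes 3 and at under 1 in the other 5 libraries. In the MHC class II list, 11 of 14 genes had positive folds (median 0.26, and -0.16 without control monocytes 2). The costimulator Cd86 was at 9804, 7322 and 6698 against 6281, 4077 and 5736 (log2 0.57, SE 0.26, limma adjusted p 0.82), and H2-DMb1, a chaperone of peptide loading, at 2240, 983 and 1115 against 546, 449.9 and 690.5, both without overlap. The summed class II list was at 341200 to 457800 in KO and at 268900 to 462700 in control monocytes. MHC class I genes had a median of -0.01 over 15 genes, with no member apart.

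Inflammatory and sensing genes gave few differences. Il12b, the p40 chain of interleukin 12 and 23, was at 187, 106 and 146 in KO and at 0 in all 3 control monocyte libraries, at least 122-fold higher. Limma did not call it (log2 7.17, SE 1.76, adjusted p 0.343), while DESeq2 did (adjusted p 0.00156). The limma fit of the 6 monocyte libraries alone gave Il12b an SE of 0.895. Its adjusted p of 0.364 there was also that of Upp1, Tnfrsf18, Clec4a4 and Sh2d1b1. In microglia Il12b was at 541, 35.6 and 134 in KO and at 0, 224 and 10.2 in control libraries, with overlap. The decoy receptor Il1r2 was at 5125, 4671 and 5476 against 3486, 1091 and 4204, without overlap. The list of 27 cytokine and inflammasome genes had 10 positive and 17 negative folds (median -0.06). Tlr4, the receptor of lipopolysaccharide, was at 14.8, 21.0 and 264 against 297, 649.6 and 719.9 (log2 -3.52, SE 1.16, limma adjusted p 0.621) and was the 1 member of 20 sensing receptors without overlap. Of 36 interferon response genes 23 had negative folds (median -0.16, and 0.21 without KO monocytes 2), and Gbp3, a guanylate-binding protein, was the 1 without overlap (1420, 279 and 1571 against 1617, 3053 and 1630). Summed interferon genes were lowest in KO monocytes 2 (106400) and control monocytes 2 (101700), and at 178700 to 264100 in the other 4.

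Adhesion and movement genes were near level. The beta-1 integrin Itgb1 was at 2058, 1956 and 1847 against 3314, 2491 and 2582 (log2 -0.51, SE 0.26, limma adjusted p 0.847), the 1 of 23 adhesion genes without overlap. Of 33 actin and migration genes (median 0.11), the formin Fmnl1 was at 777, 1367 and 723 against 578, 461 and 478, and Was, the Wiskott-Aldrich syndrome protein, at 229, 262 and 399 against 715, 410.4 and 740.4. Of 29 phagocytosis and lipid genes none was without overlap (median -0.07), and the lysosomal protease Ctsd was at 11080, 17890 and 7956 against 18970, 11630 and 20660.

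In the repair list 15 of 22 genes had positive folds (median 0.27). Mrc1, the mannose receptor CD206 of repair-type macrophages, was at 892, 1433 and 711 in KO and at 328, 529 and 79.3 in control monocytes (log2 2.01, SE 0.72, limma adjusted p 0.712). Ecm1, a secreted matrix protein, was at 1488, 818 and 1844 against 1886, 2495 and 2185. Without control monocytes 3 the median of the list was -0.08.

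Among inhibitory and paired receptors (median 0.58 over 24 genes, and 0.17 without control monocytes 2), Siglecf, a sialic acid-binding inhibitory receptor, was at 176, 21.4 and 38.1 against 6.32, 0 and 7.67, without overlap.

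Metabolic genes had a few members apart. Pdk1, the kinase that shuts pyruvate out of mitochondria, was at 907, 555 and 622 against 92.4, 151 and 15.3 (log2 3.47, SE 0.82, limma adjusted p 0.343). Hk1, a hexokinase, was at 25.2, 19.5 and 50.1 against 238, 428 and 441 (log2 -3.56, SE 1.14, limma adjusted p 0.596), and Gapdh at 13270, 12390 and 12260 against 18590, 17480 and 15690. Over 28 glycolysis and hypoxia genes the median was -0.02. Ndufa1, of respiratory complex I, was at 9940, 8594 and 7821 against 7203, 6419 and 5103, while the median of 25 oxidative phosphorylation genes was 0.14. Rps19 of the small ribosomal subunit was at 13210, 14570 and 13860 against 17350, 19190 and 15850, and 19 of 26 ribosomal protein genes had negative folds (median -0.11). In cholesterol synthesis (median 0.07 over 17 genes), the regulator Srebf2 was at 115, 297 and 139 against 3.95, 0 and 62.7 and the enzyme Fdft1 at 7.81, 17.6 and 7.35 against 317, 26.3 and 47.3, apart in opposite directions.

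Cell cycle genes had the highest median among the larger lists, 0.63 over 36 genes, with 24 positive and 11 negative folds, and their members moved apart from each other. Mki67, the proliferation antigen Ki-67, was at 1892, 1460 and 802 against 284, 0 and 175 (log2 5.15, SE 1.63, limma adjusted p 0.596), and Top2a, topoisomerase II alpha, at 816, 1446 and 726 against 131, 136 and 706 (log2 2.02). Ccna2, cyclin A2, was lower, at 10.4, 11.2 and 58.8 against 292, 461 and 222 (log2 -3.94, SE 0.81, limma adjusted p 0.229), and so was Cdk1, its kinase partner, at 0, 0 and 106 against 124, 691 and 175. Ccne1, cyclin E1, was at 154, 14.6 and 244 against 3.95, 2.19 and 3.84, and Cenpa, the centromeric histone, at 741, 606 and 522 against 261, 446 and 326. The summed list was at 14650 to 17300 in KO and at 10540 to 12910 in control monocytes, without overlap. Pcna, its largest member in every library, alone gave 3835 to 5343 of the KO sums and 3428 to 4952 of the control sums. Mki67 and Top2a, given above, also weigh in it. The gap between the sums is therefore not a result about the list as a whole. None of these genes was called by limma.

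Of 16 S100 and annexin genes 15 had positive folds (median 0.37, and 0.19 to 0.48 on leaving out 1 library), though only S100a13 was without overlap (2708, 1875 and 1929 against 1696, 1663 and 1460). The summed list was at 124100 to 185500 in KO and at 103300 to 109700 in control monocytes, without overlap. It holds S100a8 and S100a9, which also mark neutrophils. S100a8 alone gave 28290 to 47080 of the KO sums and 10980 to 29640 of the control sums. The gap between the sums is therefore not a result about the family as a whole. Sums were also apart for oxidative phosphorylation, at 113700 to 115500 in KO and 98150 to 109200 in control monocytes. Immediate early genes, which respond to handling and stress within minutes, had 19 negative folds of 27 (median -0.24, and 0.003 without KO monocytes 2), and the chaperone Hsph1 was the 1 without overlap (1331, 1119 and 1256 against 1424, 1756 and 2692). Ddit3 (CHOP), a transcription factor of the unfolded protein response, was at 2926, 1557 and 2279 against 1034, 516 and 1508 (log2 1.23, SE 0.42, limma adjusted p 0.679), while the median of that list was 0.00.

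Markers of other brain and blood cells were present at varied levels. Border-associated macrophage genes summed to 46220 to 56310 in KO and 52410 to 61480 in control monocytes, most of it Ms4a7 (33490 to 44480 over all 6). Platelet genes summed to 4419 to 6657 and 3311 to 12220, nearly all of it Pf4, while the platelet gene Ppbp was at 0 to 493 over all 6. Endothelial and mural genes summed to 7185 to 13460 and 4303 to 14200, led by Ly6a. Plasmacytoid dendritic cell genes summed to 6700 to 12920 and 8958 to 12640, led by Bst2, which the interferon list also holds. The groups overlapped in each of these sums. A sum led by 1 gene does not show that such cells were present, which was not tested. Astrocyte genes summed to 568 to 2471 and 618 to 2765. Microglial genes were present in both groups (sums of 32880 to 49980 in KO and 34430 to 46200 in control monocytes). P2ry13 and Gpr84 were the 2 members without overlap (11.1% of those tested, against 8.82% of all genes), each higher in KO. P2ry13 was at 622, 658 and 1131 against 516, 222 and 505, and Gpr84 at 388, 576 and 885 against 205, 252 and 340.1. Oligodendrocyte genes summed to 3428 to 4369 in KO and 3491 to 5057 in control monocytes, and neuronal genes to 69.4 to 348 and 64.0 to 700. Alpha-globin Hba-a2 was at 1132, 2.62 and 34.7 in KO and at 0, 0 and 192 in control monocytes. The B cell gene Cd79b was at 0 in all KO libraries and at 358, 0 and 344 in controls.

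With all 12 libraries, limma and edgeR called no gene's KO difference as different between monocytes and microglia, while DESeq2 did. Limma's genotype-by-population term called 0 of 12432 genes (0%), with 590 (4.75%) at an unadjusted p under 0.05, edgeR called 0 and DESeq2 276. For Upp1, Tnfrsf18, Clec4a4 and Elane the adjusted p of this limma term was 0.3, and for Sh2d1b1 it was 0.999. In microglia the same contrast called 4 genes (0.0322%), none of them among the 5 of monocytes: Ermn was higher, and Aldh1l1, Tmem177 and Trip13 were lower, each at 0 or under 1 in every library of one genotype. For Cxcr4 the term was 0.04 (SE 1.56), with microglia at 0 to 7.88. Ccr2 was at 72.0, 119.8 and 81.0 in KO and at 22.5, 13.8 and 5.98 in control microglia, without overlap, as were 9.46% of all genes there (term -2.88, SE 0.69, limma adjusted p 0.621). Groups were apart in both populations in the same direction for 58 genes (0.467%), and in opposite directions for 56 (0.45%).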

How the data were processed

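RNA of sorted brain monocytes and microglia was amplified with SMART-Seq2, per the labels' protocols. The deposited signal is a table of normalized counts per gene, which the authors made with bcl2fastq 2.20, kallisto and DESeq2, per the submitters' processing notes; which genome build and annotation were used is not given in the sources used here. Because the normalization divides each library by 1 factor, every nonzero value was a whole multiple of what 1 read is worth (tolerance 0.01), so reads were recovered; 100% of values came out whole. SMART-Seq2 has no molecular identifiers, so read counts are not counts of molecules, and floors cover counting error only.

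Of 16140 genes, 12432 reached 10 or more in at least 3 of the 12 libraries and were tested. The 4 group means were fitted to log2(value + 1) with limma 3.58.1 (R 4.3.3, trended variance), with Benjamini-Hochberg adjustment and calls at an adjusted p under 0.05. Log2 folds are on that scale and understate changes of low genes. Alternatives were edgeR 4.0.16, DESeq2 1.42.0 and limma-voom on recovered reads, other scalings, filters and pseudocounts, thinning, and leaving out libraries; both settings on Xist were added after the data were seen. Gene names that a spreadsheet had altered were restored where possible (683 names; 24 had been turned into dates).

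The members and gene lists were chosen with earlier results of these data known. Genes named are Cxcr4, Ccr2, Ly6c2, Ackr3, all called genes, those of smallest unadjusted p in each direction (12 each, mean of 50 or more in a group, no overlap), and in each list up to 4 members without overlap or, where there were none, the 2 of smallest p. All others named, among them Mpo, Ctsg, Ms4a3, Sh2d1b2, Gng2, Cenpa, Ccne1, Tnfrsf4, the Clec4a neighbours, Fpr2, the most abundant markers and the sex-linked genes, were chosen after their values were seen. The labels do not say that sorts or preparations were separate beyond the mouse numbers, so p-values measure the spread between these libraries.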

Additional observations from a re-analysis of the deposited data

How the results depend on the processing

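The number of genes called in monocytes (5) fell to 0 with a filter of 50 or more in 3 libraries, in the fit of the 6 monocyte libraries, with edgeR, without the 2 KO libraries of high Xist and with high Xist as a term, and to 1 with library weights. It was 339 with DESeq2 and ranged from 2 to 30 on leaving out 1 library. Of 20 alternatives, Upp1 was called in 15, Tnfrsf18 and Clec4a4 in 11, Elane in 10 and Sh2d1b1 in 8. The genotype-by-population count (0) was 276 with DESeq2 and 0 to 1 on leaving out 1 library. The microglia count (4) was 0 with the filter of 50, edgeR and both Xist settings, 109 with DESeq2, 1 with limma-voom, 2 with thinned reads and 0 to 6 on leaving out 1 monocyte library. The cause was not tested. Cxcr4 was lower in KO in all 20 alternatives (log2 -1.67 to -0.46) and called in none. Over all genes the median log2 fold lay between -0.03 and 0.11.

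These uncalled folds changed sign. With library weights, Ccr2 was 0.001, Snap25 0.038 and Pf4 0.026. With limma-voom, Ackr3 was -0.486 and Pf4 0.03. Cd22 was 0.07 with edgeR and 0.05 with DESeq2. On leaving out 1 library at a time, Ccr2 ranged from -0.329 to 0.009, Ackr3 from -1.845 to 1.476, H2-M3 from -0.029 to 2.918, C4b from -0.939 to 3.174, Cd22 from -1.355 to 1.368, Ppbp from -0.566 to 3.436, Pf4 from -0.64 to 0.36 and Irf8 from -0.118 to 3.695. Without the 2 high-Xist libraries, Ccr2 was 0.239, Ackr3 -1.845, Snap25 1.251, Cd22 1.709 and Cd7 -2.392. With high Xist as a term, Ackr3 was -1.885, Cd22 0.154 and Tsix -0.088.

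No paired analysis was possible because no mouse gave monocytes of both genotypes and the mouse numbers are not shared between them. With the animal as a block (correlation -0.066), since some mice gave both populations, 5 genes were called. Depth limits low genes: control monocytes 2, the shallowest library with 10406321 reads, had 10350 detected genes, the fewest of the 6.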
